A study of Homo sapiens with 6 samples.

Results

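Plasminogen activators and the proteins that hold and stop them were read out as 5 genes of the 29012 that the deposited files name: PLAU, PLAT, PLAUR, SERPINE2 and SERPINB2. They were picked by name, with their levels in these same libraries already known, so every difference given for them between the groups is a description and carries no test. All 5 were found, and all 5 passed the filter of at least 1 TPM (a level per transcript length, scaled to the library total) in 3 libraries. The study sequenced total RNA from HaCaT, an immortalised human skin keratinocyte line, in 2 groups of 3 libraries. In the PSENEN siRNA group, 100 pmol of an siRNA against PSENEN was delivered with Lipofectamine 2000, a lipid transfection reagent. PSENEN encodes a small subunit of γ-secretase, a protease inside the membrane that cuts Notch receptors. The mismatch siRNA group received a control siRNA, whose amount the labels leave out, and both groups grew in medium with 10% serum. RNA was taken at 48 and 72 h, and which of these times was sequenced is not given. Cells that received only the reagent are described too and were not analysed here. All libraries come from 1 cell line, and whether the 3 of a group are separate cultures is not given.

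Plasminogen is a blood-borne zymogen that urokinase (PLAU) and tissue-type plasminogen activator (PLAT) cut into plasmin, a serine protease that dissolves fibrin and breaks down extracellular matrix. The urokinase receptor (PLAUR, also called uPAR) is tethered to the outer membrane by a lipid anchor and concentrates urokinase at the cell surface. Serpins trap the activators by forming a covalent complex with them, and keratinocytes at the edge of a healing wound are known to make urokinase and its receptor.

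The promoters of 3 of these genes are shown, which differ in the elements they hold. All 3 are genes whose levels were lower in PSENEN siRNA libraries, and whether the elements relate to the levels was not tested. Each is 300 bases from RefSeq on GRCh38.p14, running from 250 bases before the annotated start to 50 bases from it on, 5′ to 3′ on the gene's own strand. Capitals mark matches on either strand to an AP-1 motif (TGANTCA), a GC box (GGGCGG) or a TATA box (TATAAA). The window of PLAU is chr10:73910882-73911181 on the plus strand, that of PLAUR is chr19:43670120-43670419 on the minus strand, and that of SERPINB2 is chr18:63887455-63887754 on the plus strand.
PLAU: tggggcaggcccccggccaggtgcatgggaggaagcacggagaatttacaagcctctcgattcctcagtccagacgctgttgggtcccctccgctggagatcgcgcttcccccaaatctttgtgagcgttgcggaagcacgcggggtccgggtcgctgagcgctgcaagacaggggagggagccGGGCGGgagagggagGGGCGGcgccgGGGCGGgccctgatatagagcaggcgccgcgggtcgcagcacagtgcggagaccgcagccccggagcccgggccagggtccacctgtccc
PLAUR: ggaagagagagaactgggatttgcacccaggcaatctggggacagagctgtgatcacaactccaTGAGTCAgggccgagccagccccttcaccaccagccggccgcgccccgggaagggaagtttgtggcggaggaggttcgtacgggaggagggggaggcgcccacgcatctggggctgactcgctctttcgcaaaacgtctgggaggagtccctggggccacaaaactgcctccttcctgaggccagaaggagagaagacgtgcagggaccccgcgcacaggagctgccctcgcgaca
SERPINB2: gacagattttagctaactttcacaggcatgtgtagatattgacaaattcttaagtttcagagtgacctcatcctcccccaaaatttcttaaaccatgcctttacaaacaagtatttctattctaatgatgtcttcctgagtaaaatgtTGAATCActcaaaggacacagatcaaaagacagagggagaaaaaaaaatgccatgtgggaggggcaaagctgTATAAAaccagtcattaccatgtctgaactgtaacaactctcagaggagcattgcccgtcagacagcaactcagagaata
The PLAU window held 3 GC boxes, at 66, 51 and 40 bases before the start, and neither of the other motifs. The PLAUR window held 1 AP-1 motif, 186 bases before the start. The SERPINB2 window held 1 AP-1 motif at 102 bases and a TATA box at 30 bases before the start, and no GC box. Of 35116 RefSeq promoter windows of that length, 7.71% held TGANTCA, 45.0% held GGGCGG and 11.5% held TATAAA, with overlaps between motifs allowed. The start of the most abundant transcript lay 25 bases downstream of the RefSeq start for PLAU and 181 bases upstream of it for PLAUR, and it was the same base for SERPINB2. A further RefSeq start of PLAU lies 547 bases upstream of that transcript's start, and its window held none of the 3 motifs. The RefSeq starts of SERPINE2 lie 648 and 7810 bases downstream of the start of its most abundant transcript, and their windows are not shown. The first of these windows held 2 GC boxes, at 230 and 183 bases before the start, and the second held 1, at 50 bases. Neither held an AP-1 motif or a TATA box. GC boxes were thus found for PLAU and also for SERPINE2, whose levels overlapped between the groups. A match is a run of letters and says nothing about whether a factor binds there.

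The siRNA target was checked first. A gene with no transcript listed in the files used here was counted as 0 TPM. PSENEN measured 1.75, 2.08 and 1.496 TPM in PSENEN siRNA libraries 1 to 3, against 6.58, 12.6 and 7.47 TPM in mismatch siRNA libraries 1 to 3. The PSENEN siRNA mean was 20.0% of the mismatch mean (exact two-sided permutation p = 0.1, the smallest that 3 against 3 libraries allow). These values count assembled transcripts. From reference transcripts alone PSENEN was 6.58, 8.85 and 6.55 TPM in mismatch siRNA libraries 1 to 3, and the PSENEN siRNA mean was 24.2% of the mismatch mean. With assembled transcripts counted, the adjusted p of PSENEN in the fit across all genes, by limma with Benjamini-Hochberg adjustment, was 0.0470. It lay between 0.0889 and 0.157 with 1 library left out, where the call held in 0 of 6 limma fits. The call held in 4 of 11 other alternatives, with limma adjusted p values of 0.0381 to 0.228. The files hold no read counts. An estimate from coverage puts the aligned sequence at 9.16 to 11.9 gigabases with PSENEN siRNA and 11.5 to 15.6 gigabases with mismatch siRNA. Keratinocyte markers were all present. The summed level of the 10 markers was 4529 to 4845 TPM with PSENEN siRNA and 6889 to 9827 TPM with mismatch siRNA, and 9 of the 10 did not overlap between the groups, all lower in PSENEN siRNA libraries, with 0 passing the limma test and 9 at an unadjusted p under 0.05. Of all genes tested, 14.5% were separated as lower and 14.6% had an unadjusted p under 0.05 in either direction. Markers of other skin cell types were low in both groups. Marker sums of fibroblasts were 0.550 to 2.33 TPM with PSENEN siRNA and 1.99 to 2.69 TPM with mismatch siRNA, with COL1A2, LUM and PDGFRB at 0. Those of endothelial cells were 1.34 to 1.85 TPM with PSENEN siRNA and 1.18 to 5.30 TPM with mismatch siRNA, with PECAM1 and TEK at 0. Melanocyte sums reached 0.956 TPM with PSENEN siRNA and 1.95 TPM with mismatch siRNA, with MLANA, TYR and DCT at 0. Leukocyte sums were 0.877 to 1.65 TPM with PSENEN siRNA and 1.04 to 2.28 TPM with mismatch siRNA, with CD3E and TYROBP at 0. The part that depth or the lower keratinocyte markers have in the differences below was not tested.

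Of the 5 genes, 4 were lower in every PSENEN siRNA library than in any mismatch siRNA library. They were both activators, the receptor and the inhibitor SERPINB2, and the levels of the inhibitor SERPINE2 overlapped. Of the 16424 genes tested, 14.5% were separated in the same direction. The genes were chosen on this contrast, so nothing is read from the 4 of 5. In bulk RNA, fewer cells that express a gene and less RNA per cell cannot be told apart.

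**Figure D1:**
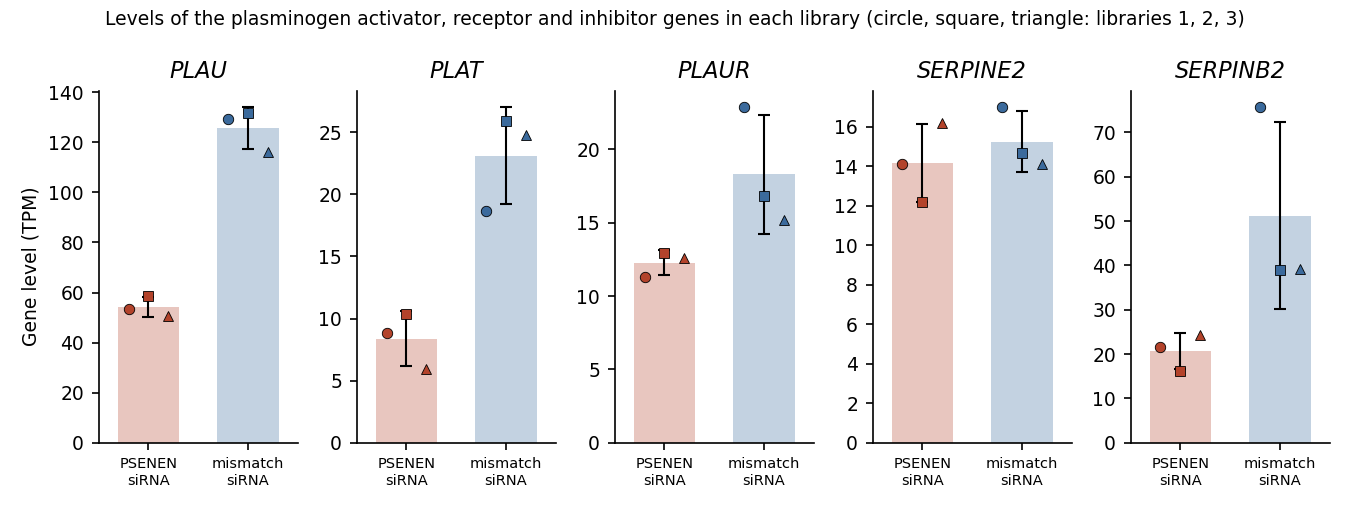
Level of each gene in TPM (vertical axis, one scale per panel) in the 3 PSENEN siRNA libraries and the 3 mismatch siRNA libraries. Bars are means, whiskers SD, and circles, squares and triangles are libraries 1, 2 and 3. PLAU averages 54.2 and 126 TPM in the PSENEN siRNA and mismatch siRNA groups, and SERPINE2 is the gene whose points overlap.

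PLAU (ENSG00000122861), urokinase itself, was the most abundant of the genes in all 6 libraries. It lies on chr10:73909177-73917497 (GRCh38, plus strand). PLAU measured 53.4, 58.7 and 50.6 TPM in PSENEN siRNA libraries 1 to 3, and 129, 132 and 116 TPM in mismatch siRNA libraries 1 to 3. The highest PSENEN siRNA library was below the lowest mismatch siRNA library, and both groups were tight. The means were 54.2 ± 4.15 TPM with PSENEN siRNA and 126 ± 8.25 TPM with mismatch siRNA (SD, n = 3 each), or 43.1% of the mismatch level. The log2(TPM + 1) difference of PLAU was -1.20. By rank it stood within the top 10.0% to 12.2% of 11264 protein-coding genes tested with PSENEN siRNA and within the top 3.995% to 4.53% with mismatch siRNA.

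The PLAU signal came almost wholly from ENST00000372764, an 11-exon protein-coding transcript that held 94.1% of the summed TPM. Exon depth, which is deposited coverage brought to the FPKM scale (fragments per length of transcript and depth of library), was lower in all 3 PSENEN siRNA libraries for 9 of the 11 exons, at 27.5% to 49.2% of the mismatch mean over all 11. The exceptions were exons 6 and 7, where mismatch siRNA library 2 had 7.37 and 11.1, within the range of PSENEN siRNA libraries. In that library the short 5-exon transcript ENST00000481390 was listed at 15.1 TPM. It was listed at 9.13 TPM in mismatch siRNA library 3 and 3.47 TPM in PSENEN siRNA library 2, and not in the other 3 libraries. The lowest percentage, 27.5%, is that of exon 1, where depth was low, at 0.420 to 0.825 with PSENEN siRNA and 1.62 to 2.88 with mismatch siRNA. Exon 10 was far deeper, with means of 36.1 with PSENEN siRNA and 79.6 with mismatch siRNA, or 45.3%. No 31-base word of PLAU transcripts occurs, as written, in a transcript of another annotated gene. Reverse complements were not searched, so sequence shared with genes on the opposite strand is not covered.

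A single-exon transcript on the minus strand, opposite to PLAU, was assembled across its first exons in each library and belongs to no annotated gene by the rule used. It measured 2.27, 2.35 and 1.69 TPM in PSENEN siRNA libraries 1 to 3 and 3.63, 3.39 and 4.07 TPM in mismatch siRNA libraries 1 to 3. These groups did not overlap either, and as for PLAU the PSENEN siRNA libraries were the lower ones. C10orf55, the annotated gene on the opposite strand at that place, had no listed transcript in any of the 6 libraries. Whether the libraries keep strand is not given in the sources used here, so reads of the 2 strands may not be told apart. Of all single-exon transcripts, 13.4% to 14.2% per library were listed with a strand. Which strand the reads over PLAU came from was not tested.

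PLAT (ENSG00000104368), the tissue-type activator best known for dissolving clots inside vessels, was far less abundant than PLAU. It lies on chromosome 8, bases 42175233 to 42207724, on the minus strand. PLAT measured 8.81, 10.4 and 5.96 TPM in PSENEN siRNA libraries 1 to 3, against 18.7, 25.9 and 24.8 TPM in mismatch siRNA libraries 1 to 3. Every PSENEN siRNA library was below every mismatch siRNA library. The PSENEN siRNA mean of 8.38 ± 2.23 TPM was 36.2% of the mismatch siRNA mean of 23.1 ± 3.89 TPM (SD, n = 3 each). The log2(TPM + 1) difference of PLAT was -1.38, and all 14 exons of ENST00000220809 were separated between the groups, at 27.8% to 42.0% of the mismatch depth.

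One library set PLAT transcripts apart. ENST00000220809 took 71.3% to 79.0% of the gene's TPM in PSENEN siRNA libraries, and 91.3% and 92.3% in mismatch siRNA libraries 2 and 3. In mismatch siRNA library 1 it was listed at 0.00214 TPM, and the 13-exon transcript ENST00000352041, which lacks exon 4, was listed at 11.3 TPM. The depth over exon 4 in that library was 8.64 on the FPKM scale, beside 8.30 over exon 3 and 8.08 over exon 5. Exon 4 was thus as deeply covered as its neighbours there, with the coverage listed under assembled transcripts, which held 32.9% of PLAT TPM in that library. Without assembled transcripts PLAT was 6.84, 9.51 and 5.96 TPM with PSENEN siRNA and 12.5, 25.9 and 24.8 TPM with mismatch siRNA, and the groups stayed apart.

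**Figure D2:**
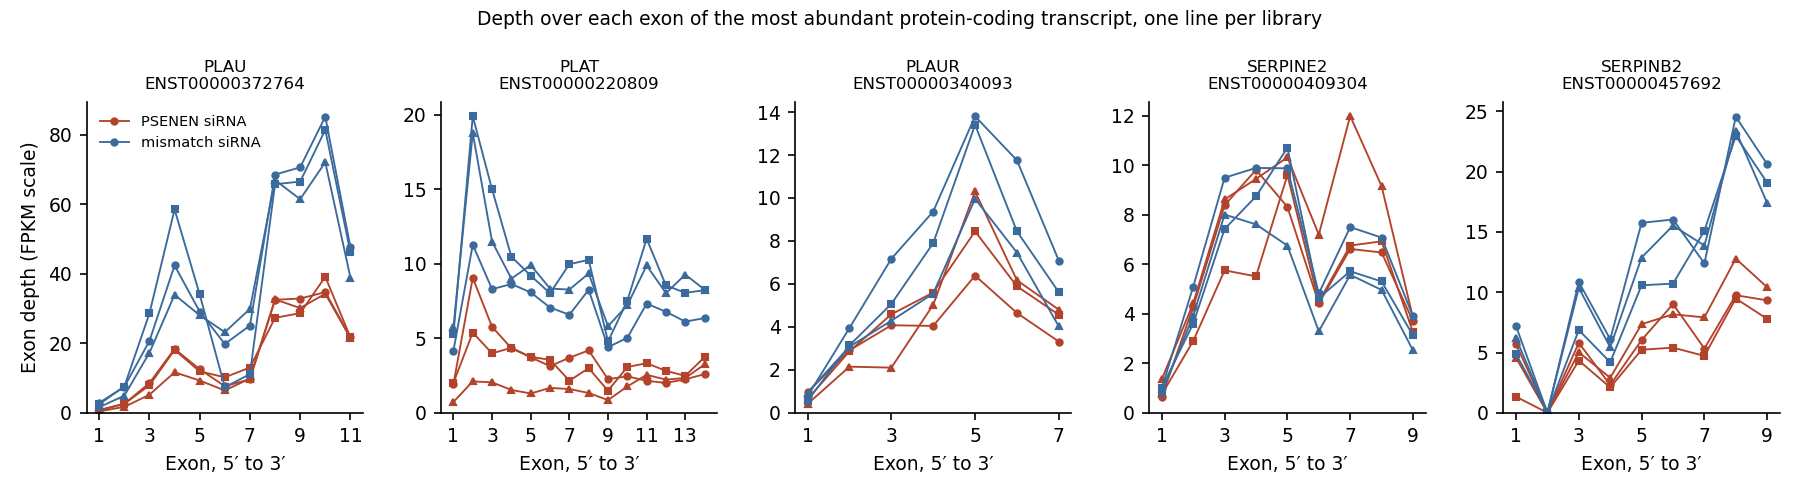
Depth of each exon on the FPKM scale (vertical axis) against exon number from 5′ to 3′ for the most abundant protein-coding transcript of each gene, with one line per library, PSENEN siRNA in red and mismatch siRNA in blue. The lines of the 2 groups are apart over all 14 exons of PLAT and 9 of 11 exons of PLAU, and are mixed over all 9 exons of SERPINE2.

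PLAUR (ENSG00000011422) encodes the urokinase receptor and lies on chr19:43646095-43670547, on the minus strand. PLAUR measured 11.3, 13.0 and 12.6 TPM in PSENEN siRNA libraries 1 to 3, and 22.9, 16.8 and 15.2 TPM in mismatch siRNA libraries 1 to 3. The groups were apart, and mismatch siRNA library 1 stood above the other 2. The means were 12.3 ± 0.871 TPM with PSENEN siRNA and 18.3 ± 4.05 TPM with mismatch siRNA (SD, n = 3 each). The log2(TPM + 1) difference of PLAUR was -0.52. Its PSENEN siRNA mean was 67.1% of the mismatch mean, and 61.9% to 76.7% with any 1 library left out. By exon, 2 of 7 exons of ENST00000340093 were apart between the groups.

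The receptor's transcripts divided between 2 main forms with different last exons. ENST00000340093 held 60.8% and ENST00000339082 held 31.5% of PLAUR TPM over the 6 libraries. ENST00000340093 measured 6.07, 10.0 and 9.50 TPM with PSENEN siRNA and 13.5, 13.0 and 3.66 TPM with mismatch siRNA, so the groups overlapped through mismatch siRNA library 3. ENST00000339082 was at 4.10, 2.93 and 3.10 TPM with PSENEN siRNA and 7.69, 3.64 and 7.49 TPM with mismatch siRNA, where the groups overlapped as well. The 6-exon ENST00000221264 was listed in no PSENEN siRNA library and at 1.37, 0.0909 and 3.17 TPM in mismatch siRNA libraries. PLAUR overlaps RN7SL368P, an annotated small RNA copy on the same strand, which measured 0.193 to 3.09 TPM.

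**Figure D3:**
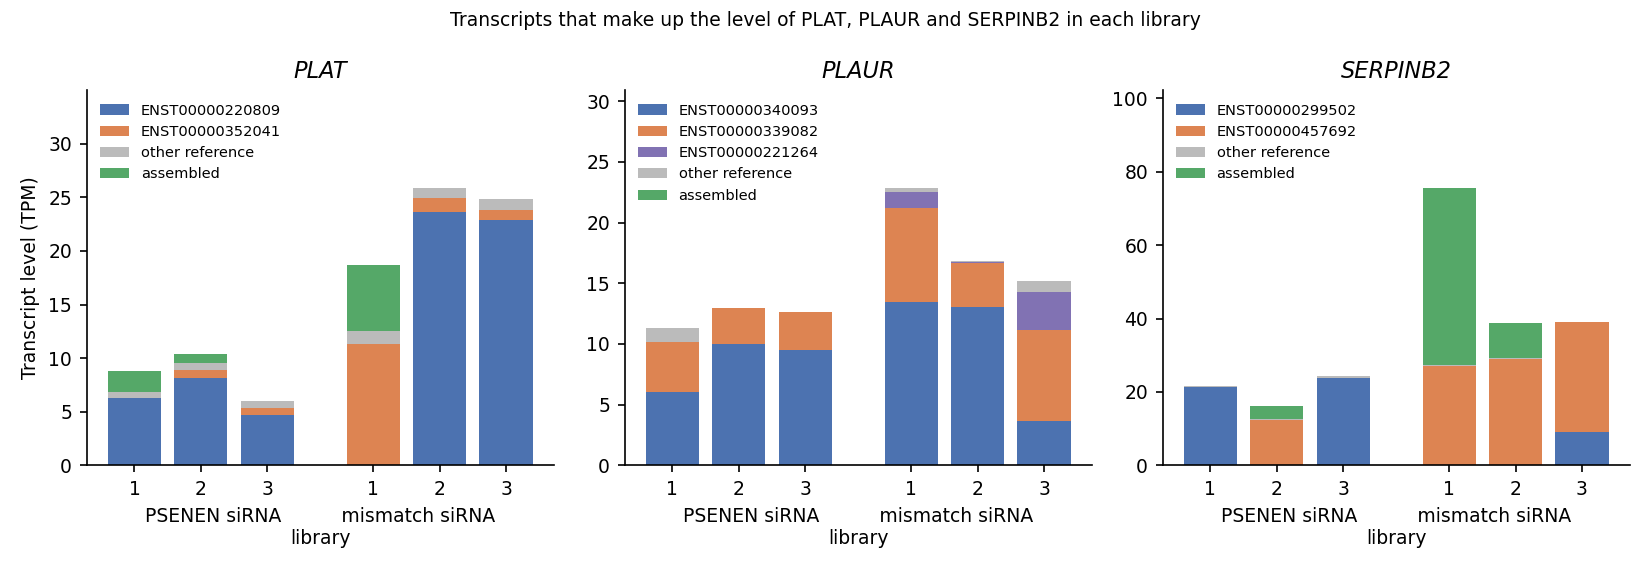
Stacked TPM (vertical axis) of the transcripts of PLAT, PLAUR and SERPINB2 in each library, PSENEN siRNA libraries left of mismatch siRNA libraries. Colours are named reference transcripts, other reference transcripts and assembled transcripts that match none. In mismatch siRNA library 1, assembled transcripts make up 64.0% of SERPINB2 and 32.9% of PLAT.

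SERPINE2 (ENSG00000135919), known as protease nexin-1, inhibits urokinase, the tissue-type activator, plasmin and thrombin. It lies on chr2:223975112-224039319, on the minus strand. SERPINE2 measured 14.1, 12.2 and 16.2 TPM in PSENEN siRNA libraries 1 to 3, and 17.0, 14.6 and 14.1 TPM in mismatch siRNA libraries 1 to 3. The ranges overlapped, with PSENEN siRNA library 3 above 2 of the mismatch siRNA libraries. The means were 14.2 ± 1.99 TPM with PSENEN siRNA and 15.2 ± 1.53 TPM with mismatch siRNA (SD, n = 3 each), 92.9% of the mismatch level. The difference of -0.10 on the log2(TPM + 1) scale was 0.06 when the share of assembled bases replaced TPM, so no direction is given. Exon depths were 91.3% to 135% of the mismatch mean and overlapped at all 9 exons.

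SERPINB2 (ENSG00000197632), or plasminogen activator inhibitor 2, is a largely intracellular serpin that inhibits urokinase and is known in differentiating keratinocytes. It lies on chr18:63871692-63903890, on the plus strand, and was the second most abundant of the genes in all 6 libraries with assembled transcripts counted. SERPINB2 measured 21.5, 16.3 and 24.2 TPM in PSENEN siRNA libraries 1 to 3, and 75.7, 38.9 and 39.1 TPM in mismatch siRNA libraries 1 to 3. The groups did not overlap, and mismatch siRNA library 1 stood far above the other 2. The means were 20.7 ± 4.06 TPM with PSENEN siRNA and 51.2 ± 21.2 TPM with mismatch siRNA (SD, n = 3 each), 40.3% of the mismatch level and a log2(TPM + 1) difference of -1.22. Without mismatch siRNA library 1 the PSENEN siRNA mean was 53.0% of the mismatch mean of 39.0 TPM.

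In that library assembled transcripts held 64.0% of SERPINB2. A 4-exon transcript of 472 bases was listed at 28.7 TPM in mismatch siRNA library 1, which is 37.9% of SERPINB2 there. From reference transcripts alone, SERPINB2 was 21.5, 12.7 and 24.2 TPM with PSENEN siRNA and 27.2, 29.2 and 39.1 TPM with mismatch siRNA, a log2(TPM + 1) difference of -0.71. As assembled bases scaled to the library total, a measure not divided by length, it was 33.0, 28.0 and 37.1 with PSENEN siRNA and 77.8, 77.1 and 64.1 with mismatch siRNA. On that measure mismatch siRNA library 1 stood level with mismatch siRNA library 2, and the PSENEN siRNA mean was 44.8% of the mismatch mean. In all 3 measures the groups stayed apart.

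The listed SERPINB2 isoform also differed between libraries. ENST00000299502, with 8 exons, was listed at 21.2 TPM in PSENEN siRNA library 1, at 23.8 TPM in PSENEN siRNA library 3, at 8.99 TPM in mismatch siRNA library 3, and at no more than 0.0123 TPM in the other 3. ENST00000457692, with 9 exons, was listed at 12.3 TPM in PSENEN siRNA library 2 and not in libraries 1 and 3 of that group. It was listed at 27.0, 29.04 and 30.0 TPM in mismatch siRNA libraries 1 to 3. The 258-base exon 2 sets ENST00000457692 apart, and its depth on the FPKM scale was 0, 0.00551 and 0 with PSENEN siRNA and 0.00578, 0.0466 and 0.0491 with mismatch siRNA. Exon depth counts only listed transcripts, so the 0 in libraries without ENST00000457692 follows from the listing. Exon 2 did not overlap between the groups, but its values lie near 0 and nothing is read from that. Exon 3 beside it had 4.34 to 5.81 with PSENEN siRNA and 6.87 to 10.8 with mismatch siRNA. The depth of exon 2 was thus far below that of its neighbour also in the libraries where ENST00000457692 is listed. Of the other 8 exons, 7 were separated between the groups, at 43.4% to 54.0% of the mismatch depth, and the first exon overlapped. Of the 31-base words of SERPINB2 transcripts, 18.9% occur in another annotated gene, and SERPINB10, which overlaps it on the same strand, measured 0 to 1.61 TPM.

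The order of the levels per length, with assembled transcripts counted, was fixed at the top and mixed below. PLAU was first and SERPINB2 second in every library. From reference transcripts alone, SERPINB2 at 12.7 TPM was below PLAUR at 13.0 TPM in PSENEN siRNA library 2. Below them came SERPINE2, PLAUR and PLAT in PSENEN siRNA libraries 1 and 3, and PLAUR, SERPINE2 and PLAT in PSENEN siRNA library 2. In mismatch siRNA libraries 2 and 3 the order was PLAT, PLAUR and SERPINE2, and in mismatch siRNA library 1 PLAUR came before PLAT. In PSENEN siRNA libraries the ranges of SERPINE2 and PLAUR overlapped, and in mismatch siRNA libraries those of PLAT and PLAUR and those of PLAUR and SERPINE2 did.

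Ratios of TPM within a library, which cancel a shared scaling, were apart between the groups for some pairs. The ratio of PLAU to PLAUR, ligand to receptor, was 4.72, 4.53 and 4.01 with PSENEN siRNA and 5.65, 7.82 and 7.66 with mismatch siRNA, and the groups did not overlap. The ratio of PLAU to SERPINE2 was 3.91 ± 0.850 with PSENEN siRNA and 8.28 ± 0.686 with mismatch siRNA (SD, n = 3 each), also without overlap. In these values the activator was lower relative to its receptor and to SERPINE2 in all PSENEN siRNA libraries. The genes were chosen with their levels known, so these ratios restate those levels and nothing further is read from them. The ratio of PLAU to PLAT, 6.73 ± 1.52 with PSENEN siRNA and 5.57 ± 1.19 with mismatch siRNA, overlapped, as did that of PLAU to SERPINB2, 2.73 ± 0.793 with PSENEN siRNA and 2.69 ± 0.872 with mismatch siRNA. Neither of these pairs set the groups apart. The summed activators were 62.6 ± 6.29 TPM with PSENEN siRNA and 149 ± 8.24 TPM with mismatch siRNA. The summed inhibitors SERPINE2 and SERPINB2 were 34.8 ± 6.02 TPM with PSENEN siRNA and 66.5 ± 22.7 TPM with mismatch siRNA (SD, n = 3 each), and neither sum overlapped between the groups. The ratio of the first sum to the second was 1.74, 2.43 and 1.40 with PSENEN siRNA and 1.60, 2.94 and 2.65 with mismatch siRNA, so the ratio of these activators to these inhibitors overlapped between the groups. The overlap rests on mismatch siRNA library 1, in which assembled transcripts held most of SERPINB2, and without it the groups were apart. They were also apart in assembled bases, at 2.10, 2.49 and 1.63 with PSENEN siRNA and 2.56, 2.60 and 2.94 with mismatch siRNA. From reference transcripts alone they overlapped, at 1.69, 2.74 and 1.40 with PSENEN siRNA and 3.21, 3.59 and 2.65 with mismatch siRNA. These alternatives were chosen after seeing the data.

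Around these genes, 31 further genes of the plasminogen system were taken in 5 roles, of which 20 passed the filter. In the limma fit, 0 were higher and 1 was lower in PSENEN siRNA libraries at a Benjamini-Hochberg adjusted p under 0.05. Over all 16424 genes tested, 0.347% passed as lower and 0.164% as higher. The log2(TPM + 1) difference was negative for 16 of the 20 and positive for 4, with a median of -0.25, where the median over all genes tested was -0.05 and 56.6% were negative. At an unadjusted p under 0.05 there were 7 of the 20, where 14.6% of all genes tested were at that level. In 8 of the 20 all PSENEN siRNA libraries were lower than all mismatch siRNA libraries, and in 1, EGFR, all were higher, where 14.5% and 7.82% of all genes tested were so separated.

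The gene that passed was ST14, which encodes matriptase, a membrane serine protease of epithelia that can turn pro-urokinase into urokinase. ST14 measured 53.3, 51.9 and 53.1 TPM in PSENEN siRNA libraries 1 to 3, and 80.6, 93.0 and 85.2 TPM in mismatch siRNA libraries 1 to 3. It fell by 0.70 ± 0.095 (SE) on the log2(TPM + 1) scale, with a limma adjusted p of 0.0448. Every PSENEN siRNA library was below every mismatch siRNA library, as was so for 14.5% of all genes tested. With 1 library left out the adjusted p was 0.0889 to 0.153, so the call held in 0 of 6 such fits. It held in 4 of 11 other alternatives, over which the limma adjusted p was 0.0370 to 0.251. Cathepsin B (CTSB), a lysosomal protease that also activates pro-urokinase, averaged 231 ± 9.92 TPM with PSENEN siRNA and 312 ± 39.0 TPM with mismatch siRNA (SD, n = 3 each), with a limma adjusted p of 0.173. HPN and KLKB1 had no listed transcript.

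Plasminogen and the further inhibitors reported here were scarce or had no listed transcript. SERPINF2, the plasmin inhibitor alpha-2-antiplasmin, averaged 0.936 ± 0.292 TPM with PSENEN siRNA and 1.68 ± 0.256 TPM with mismatch siRNA (limma adjusted p = 0.365). PLG itself, the substrate of the activators, had no listed transcript in any of the 6 libraries, nor did SERPINA5, A2M and CPB2.

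Of 4 genes for proteins that bind plasminogen at the cell surface, 4 were tested and 0 passed. ENO1, a glycolytic enzyme that also serves as a plasminogen receptor, averaged 1014 ± 34.1 TPM with PSENEN siRNA and 1067 ± 130 TPM with mismatch siRNA. ANXA2, the annexin that binds plasminogen and the tissue-type activator, averaged 903 ± 140 TPM with PSENEN siRNA and 830 ± 125 TPM with mismatch siRNA (SD, n = 3 each). Both overlapped between groups, with limma adjusted p values of 0.825 and 0.777, and the sign of each difference depended on the processing. S100A10, the partner of ANXA2, named here after its values were seen, averaged 317 ± 7.62 TPM with PSENEN siRNA and 418 ± 17.8 TPM with mismatch siRNA without overlap (limma adjusted p = 0.110).

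The uptake role held endocytic receptors that clear activator complexes or bind uPAR, and partners of such receptors. All 6 tested genes of that role had negative differences and 4 were separated, with 0 passing. Of all genes tested, 56.6% were negative and 14.5% were separated as lower. LRP8 averaged 37.7 ± 6.11 TPM with PSENEN siRNA and 56.1 ± 9.94 TPM with mismatch siRNA (limma adjusted p = 0.228). SORL1 averaged 36.8 ± 4.50 TPM with PSENEN siRNA and 44.4 ± 2.27 TPM with mismatch siRNA (limma adjusted p = 0.374). Of the surface partners of uPAR, 5 were tested and 0 passed. ITGB1, the beta-1 integrin chain, averaged 119 ± 4.53 TPM with PSENEN siRNA and 140 ± 16.1 TPM with mismatch siRNA (limma adjusted p = 0.406). EGFR, the epidermal growth factor receptor, averaged 134 ± 12.3 TPM with PSENEN siRNA and 117 ± 5.52 TPM with mismatch siRNA (limma adjusted p = 0.468). VTN, FPR1 and FPR2 had no listed transcript.

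**Figure D4:**
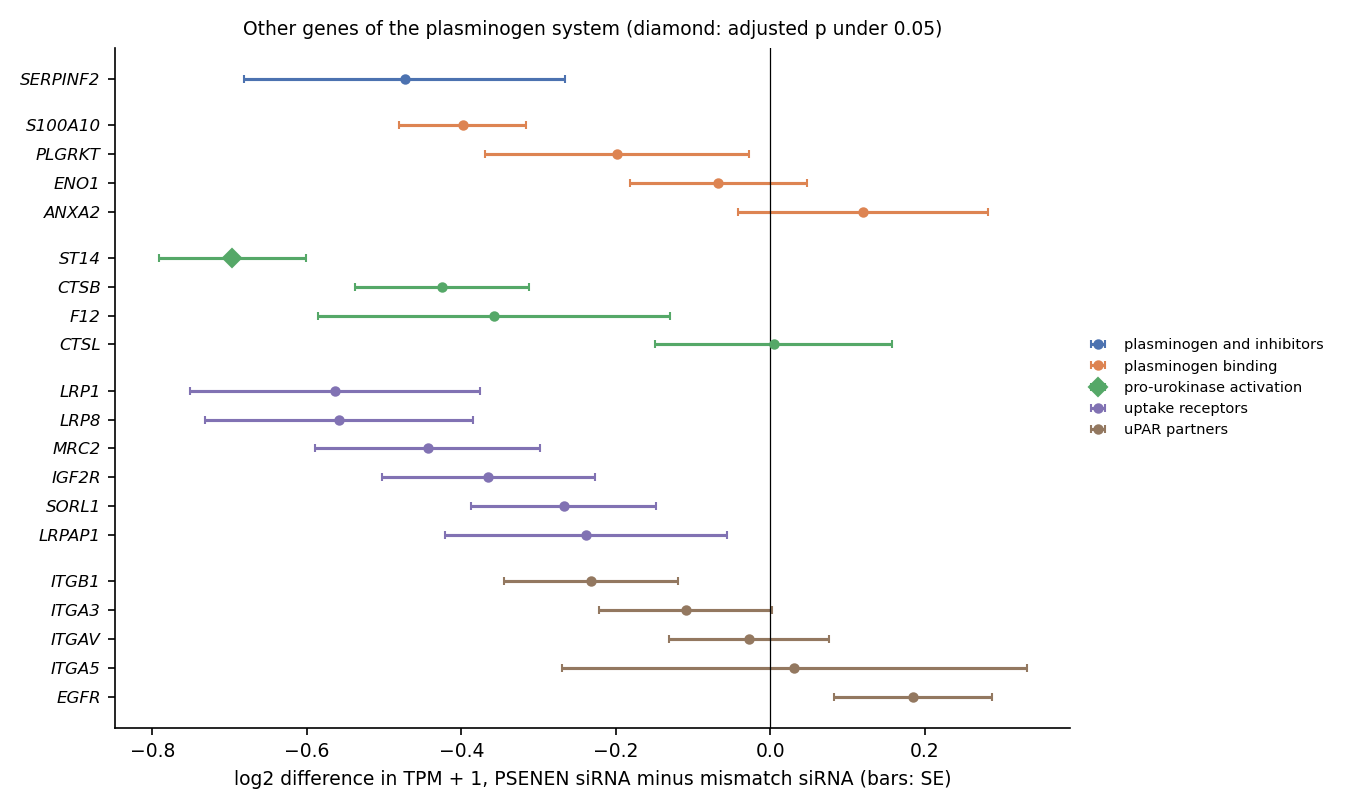
Difference in log2(TPM + 1), PSENEN siRNA minus mismatch siRNA (horizontal axis), for the 20 tested genes of the plasminogen system other than the 5 described above, grouped and coloured by role, with SE as bars. ST14, the diamond at -0.70, is the gene past the test. All 6 tested genes of the uptake role, receptors and their partners, lie left of 0, where 56.6% of all genes tested were negative.

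Genes of the Ly6/uPAR domain family, which share the fold of the receptor, were split. Of 9 genes taken, 8 were tested, 4 had negative and 4 had positive differences with a median of -0.01, and 0 passed the limma test, with 2 at an unadjusted p under 0.05, where 14.6% of all genes tested were at that level. LY6E averaged 181 ± 36.3 TPM with PSENEN siRNA and 169 ± 8.51 TPM with mismatch siRNA (SD, n = 3 each; limma adjusted p = 0.861), and the sign of its difference depended on the processing. CD59, an inhibitor of complement, measured 34.0, 24.9 and 28.7 TPM with PSENEN siRNA and 88.3, 50.7 and 32.1 TPM with mismatch siRNA, and the groups overlapped (limma adjusted p = 0.338).

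The genes whose pattern over the 6 libraries lay nearest to each of the 5 were found by the root mean square distance of centred log2(TPM + 1) values among 9000 protein-coding genes with a mean of at least 5 TPM. Nearest to PLAU were SDC4, a heparan sulfate proteoglycan of the cell surface, at a distance of 0.0819, and ANP32E, a histone chaperone, at 0.101, where the median gene was at 0.607. SDC4 measured 52.5, 58.0 and 55.3 TPM with PSENEN siRNA and 121, 130 and 127 TPM with mismatch siRNA, close to PLAU in level as well. Nearest to PLAUR were ASF1B, a histone chaperone, at 0.0398 and PSMC2, a proteasome subunit, at 0.0522, with the median gene at 0.349. Nearest to PLAT were S100A9, a calcium-binding protein of inflamed epidermis, at 0.157 and KRT17, a keratin of activated keratinocytes, at 0.170, with the median gene at 0.736. Nearest to SERPINE2 were MFSD5 at 0.0378 and CAPN2, a calpain protease, at 0.0391, with the median gene at 0.251. Nearest to SERPINB2 were BOLA2 at 0.222, whose reads may be shared with a near-identical copy, and the cytokine IL1B at 0.228, with the median gene at 0.699. IL1B measured 8.83, 8.88 and 7.59 TPM with PSENEN siRNA and 33.1, 19.0 and 17.9 TPM with mismatch siRNA, highest in mismatch siRNA library 1, as SERPINB2 was in TPM. In that library assembled transcripts held 64.0% of SERPINB2. As assembled bases SERPINB2 was 77.8, 77.1 and 64.1 in mismatch siRNA libraries 1 to 3, without that peak. Whether BOLA2 and IL1B stay nearest to SERPINB2 on that measure was not tested. Among the 5 genes themselves, PLAU and PLAT lay nearest to each other at 0.242, and PLAT and SERPINE2 farthest apart at 0.744. These distances are descriptions over 6 libraries that fall in 2 groups.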

How the data were processed

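RNA sequencing files were analysed for 6 HaCaT libraries, 3 per group. StringTie is named on every line of the files. TPM, FPKM and coverage per transcript are the values the authors deposited, with no read counts. The submitters' processing notes name Bowtie 0.12.2 with mm8 and mm9, both mouse builds, although the files are human. Which aligner, StringTie version and strand setting were used is not stated in those sources. Of 92476 reference transcripts, 98.0% had the same position in GENCODE 29 (GRCh38). Deposited TPM summed to 886394 to 909066 per library and were not rescaled.

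Gene levels are TPM summed over a gene's reference transcripts and the assembled transcripts that share most introns with it. Tests used limma 3.58.1 (R 4.3.3) with an intensity trend, fitted to log2(TPM + 1), with group as the sole term and 4 residual degrees of freedom. A gene was kept if 3 libraries reached 1 TPM, and Benjamini-Hochberg adjustment ran over all 16424 genes. P-values measure the spread between libraries, which may be technical. Exon depth is coverage divided by the library's ratio of coverage to FPKM. The limma fit was tested on simulated data. Other steps ran in Python 3.11.15 (SciPy 1.17.1, pandas 2.3.3, NumPy 2.4.6, matplotlib 3.10.9).

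The genes, lists and tests were chosen with earlier results of these data known. Named besides the 5 genes are called list genes, the 2 most abundant genes of each role, PSENEN and the 2 nearest patterns per gene. Alternatives were other pseudocounts (0.1, 5), no filter or 5 TPM, FPKM, assembled bases, median-of-ratios and quantile scaling, reference transcripts only, no trend, a replicate block, and each library left out. No sequence of PLAT is printed, and some genes of these lists are not reported here.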

Additional observations from a re-analysis of the deposited data

How the results depend on the processing

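The number of genes passing the limma test over all genes was 84 as reported (27 higher, 57 lower in PSENEN siRNA libraries), 150 with the share of assembled bases, and 9 to 12 with 1 library left out. Quantile normalization gave 64 (27 higher, 37 lower), and the other settings without a block gave 60 to 123. Same-numbered libraries deviated from their group means with correlations of -0.054, 0.0014 and -0.017, so no pairing by replicate number was seen. These values cannot settle whether the libraries were prepared in pairs. With the replicate number as a block 6 genes passed and the plasminogen system count was 0. That count, 1 as reported (ST14), was also 0 with a pseudocount of 0.1, FPKM, median-of-ratios scaling, quantile normalization, reference transcripts only, no trend, and every library left out (0 to 0). On the log2 scale, PLAU was -1.08 and SERPINE2 0.057 with assembled bases, and SERPINB2 was -0.71 from reference transcripts alone. PLAU, PLAT, PLAUR and SERPINB2 kept a negative difference under all alternatives. These genes were chosen with this contrast known, and the alternatives reuse the same libraries, so the kept sign adds no support. Among genes with small differences, the sign turned for ENO1 (0.0057 with FPKM, and -0.17 to 0.0044 with 1 library left out), for ANXA2 (-0.21 from reference transcripts), for LY6E (-0.032 with assembled bases, -0.022 from reference transcripts, and -0.059 to 0.23 with 1 library left out) and for CAPN2 (0.045 with assembled bases, 0.10 from reference transcripts). The leave-outs use 5 libraries in place of 6, and for the other changes the cause was not tested. With no read counts, no counting interval can be given for low genes such as SERPINF2 and PSENEN.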
